A study of Mus musculus with 12 samples.

Results

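The genes described here encode 10 subunits of the voltage-gated calcium channels. They were taken by name from the gene identifiers of the 2 deposited RNA tables, 10 of 23953 genes, and not by a threshold on a measured value. They are 8 pore-forming alpha1 subunits (Cacna1a, Cacna1b, Cacna1c, Cacna1d, Cacna1e, Cacna1g, Cacna1h and Cacna1i) and 2 auxiliary alpha2delta subunits (Cacna2d1 and Cacna2d3). 5-Hydroxymethylcytosine (5hmC), an oxidised form of 5-methylcytosine that is abundant in neurons, and RNA were measured in the hippocampus of male C57BL/6 mice. Stress mice (6 animals) were held in a tube for 30 min, beginning 2 h after the lights came on, and killed after 1 h of recovery. Control mice (5 animals) were naive and were taken from the cage for the same brief isoflurane anesthesia. The protocol gives an age of 7 weeks and the age tag gives postnatal day 28, so the age is uncertain. Each group had 3 libraries of captured 5hmC, made from DNA pooled from 2 mice, or from 1 mouse in a single library. With 6 stress and 5 control animals, that single-mouse library would be a control, and the labels do not say which. The other libraries are pools and not animals. The RNA values used here are 1 pooled table per group, so no test of RNA was made.

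Voltage-gated calcium channels open when the membrane depolarizes and let calcium into the cell. The alpha1 subunit forms the pore and the voltage sensor and sets the channel type, and the alpha2delta subunit raises the number of channels at the surface and some forms of it bind the drug gabapentin. In hippocampal neurons, N-type and P/Q-type channels at presynaptic terminals trigger transmitter release, L-type channels on cell bodies and dendrites couple activity to transcription, and low-voltage-activated T-type channels shape burst firing.

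All 10 hippocampal neuron markers that were listed reached a mean of 1 FPKM (RNA fragments scaled to transcript length and library size), the unit of the RNA tables, and among them were Prox1 of dentate granule cells and Wfs1 of CA1 pyramidal cells. The 5hmC lists held 15195 to 31654 peaks and covered 16.6 to 38.1 Mb. Stress libraries 2 and 3 and control library 2 had the longest lists, with at least 27797 peaks, and the other 3 libraries had at most 17186. The labels put each of these libraries at about 25 to 35 M mapped reads. 

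RNA of the R-type, P/Q-type and N-type pores was present at moderate to high levels in both tables. Cacna1e, the R-type pore (chr1:156239649-156573050, minus strand, mm9 as for all gene coordinates), was at 24.4 FPKM in control and 27.3 FPKM in stress tissue. Cacna1a, the P/Q-type pore (chr8:86939263-87164148, plus strand), was at 8.56 and 10.1 FPKM. Cacna1b, the N-type pore (chr2:24459409-24618672, minus strand), was at 7.51 and 8.43 FPKM. Each of these 3 genes was higher in the stress table. Their differences, as log2((stress + 1)/(control + 1)) of FPKM, were 0.16 for Cacna1e, 0.21 for Cacna1a and 0.15 for Cacna1b.

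The L-type pores ran from 2.93 to 9.50 FPKM. Cacna1c (chr6:118537258-119146427, minus strand), which encodes the main L-type channel of forebrain neurons, was at 8.35 FPKM in control and 9.50 FPKM in stress, a log2 difference of 0.17. Cacna1d (chr14:30853125-31304342, minus strand), an L-type pore that opens at more negative voltages, was at 2.93 and 3.62 FPKM, a log2 difference of 0.23. FPKM is scaled to transcript length, so levels can be set side by side: Cacna1c was above Cacna1d in both tables.

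Among the 10 genes, the T-type pores and Cacna1d had the lowest levels. Cacna1h (chr17:25511232-25570728, minus strand) was at 3.98 FPKM in control and 5.00 FPKM in stress, and its log2 difference of 0.27 was the highest of the 10 genes. Cacna1i (chr15:80117668-80228722, plus strand) was at 3.28 and 3.79 FPKM, a log2 difference of 0.16. Cacna1g (chr11:94269705-94335512, minus strand) was at 2.39 and 2.24 FPKM, and its log2 difference of -0.07 was the only one below 0 among the 10 genes.

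Of the alpha2delta subunits, Cacna2d1 (chr5:15440509-15880329, plus strand), the gabapentin-binding subunit of excitatory neurons, had the highest level of the 10 genes, 26.1 FPKM in control and 28.9 FPKM in stress, a log2 difference of 0.14. Cacna2d3 (chr14:29718129-30535050, minus strand), known in mice for a part in pain and hearing, was at 12.0 and 12.5 FPKM, a log2 difference of 0.05. Its stress value lies outside the interval the authors deposited with it, so it is less certain than the others.

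In all, 9 of the 10 genes were above 0, where 69.4% of the 11071 genes whose 2 tables averaged 1 FPKM or more were also above 0. The median log2 difference of the 10 genes was 0.16, beside 0.08 over all 11071 genes, whose middle 50% ran from -0.03 to 0.19. Set against that median, 8 of the 10 were above it, and Cacna2d3 and Cacna1g were below. None of the 10 differed by 0.32 or more on this scale in either direction, where 7.71% of all genes were higher by this much and 3.52% lower. With 1 table per group these are differences between 2 tables, and no replicate check of them exists.

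**Figure D1:**
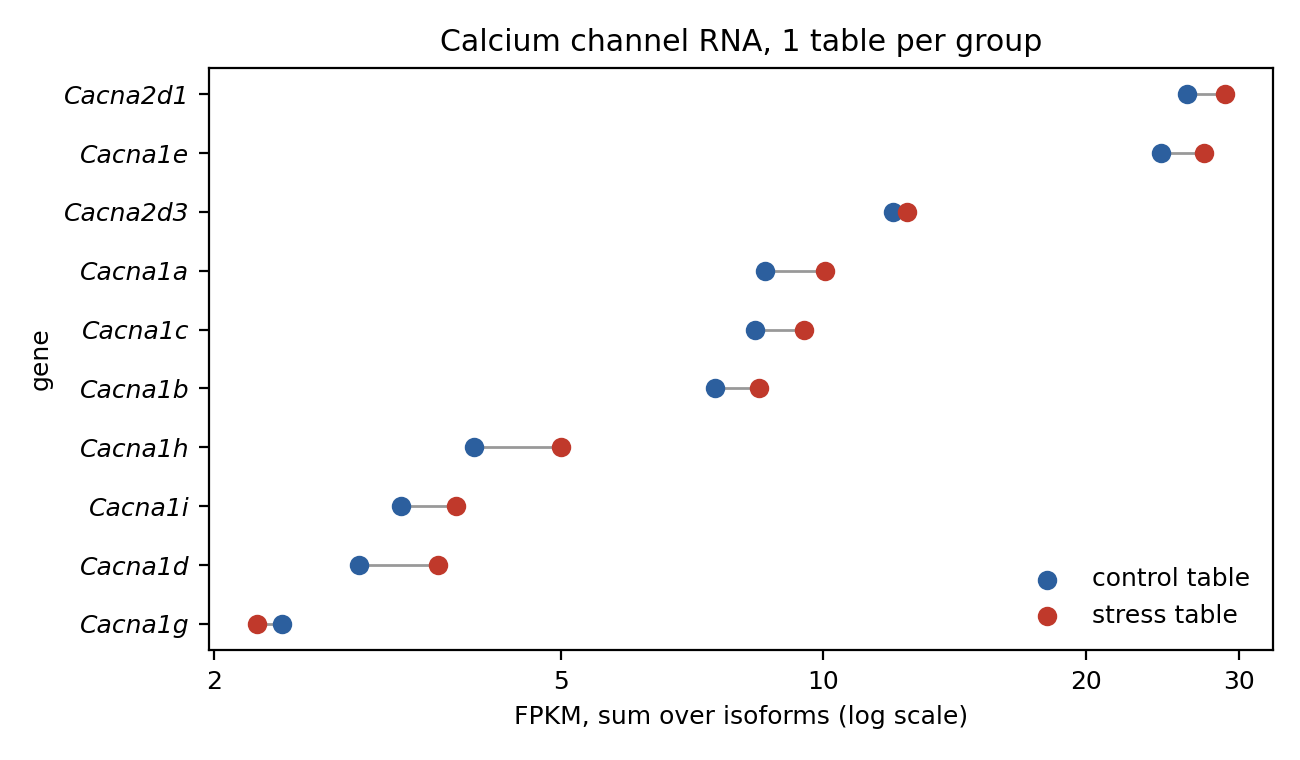
RNA level of the 10 calcium channel genes in FPKM (log axis) in the control and the stress table, 1 point per table. Cacna2d1 and Cacna1e stand highest at 24.4 to 28.9 FPKM, Cacna1g lowest at 2.24 to 2.39 FPKM, and the stress point lies to the right of the control point for every gene except Cacna1g.

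Tissue markers also differed between the 2 tables. The 6 general neuron markers had summed levels of 844 FPKM in control and 937 FPKM in stress. Their median log2 difference was 0.08 (range 0.05 to 0.21). The 10 hippocampal neuron markers had 196 and 220 FPKM and a median of 0.21, ranging from -0.38 for Fibcd1 to 0.45 for Zbtb20. Markers of the thalamus and neighbouring tissue, of which 9 of 10 reached 1 FPKM, had summed levels of 49.6 and 61.8 FPKM and a median of 0.29, ranging from -0.25 for Lef1 to 0.56 for Prkcd. Choroid plexus markers went the other way: 5 of 7 reached 1 FPKM, all 5 had differences of -0.32 or less, and their sum was 231 FPKM in control and 63.6 FPKM in stress. Oligodendrocyte markers had a median of -0.20 (range -0.51 to 0.09) and astrocyte markers 0.17 (0.09 to 0.23). Microglia markers had a median of 0.22 (-0.39 to 0.43) and endothelial and mural markers -0.07 (-0.67 to 0.33), so members of these lists went both ways. No marker of these lists was at 0 in either table. In bulk tissue, fewer cells of a type and less RNA per cell cannot be told apart, and the part of these markers in the calcium channel values was not tested.

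Several start sites are annotated for Cacna1c and Cacna1d, and nearly all RNA of both genes was assigned to transcripts that begin at a CpG-rich one. The 5 promoter windows are shown because CpG is the substrate of methylation and hydroxymethylation and because windows of the same gene differ in it. Each holds 250 bases before and 50 bases after a start, from RefSeq on GRCm38.p6, on the minus strand, 5′ to 3′, with every CG in capitals.
Cacna1c, outer start, chr6:119196360-119196659: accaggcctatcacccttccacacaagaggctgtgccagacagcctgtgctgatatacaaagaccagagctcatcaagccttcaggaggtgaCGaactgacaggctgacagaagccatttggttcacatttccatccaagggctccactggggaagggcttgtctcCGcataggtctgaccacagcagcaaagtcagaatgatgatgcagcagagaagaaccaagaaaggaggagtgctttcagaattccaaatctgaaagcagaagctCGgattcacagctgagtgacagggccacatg
Cacna1c, middle start, chr6:119108446-119108745: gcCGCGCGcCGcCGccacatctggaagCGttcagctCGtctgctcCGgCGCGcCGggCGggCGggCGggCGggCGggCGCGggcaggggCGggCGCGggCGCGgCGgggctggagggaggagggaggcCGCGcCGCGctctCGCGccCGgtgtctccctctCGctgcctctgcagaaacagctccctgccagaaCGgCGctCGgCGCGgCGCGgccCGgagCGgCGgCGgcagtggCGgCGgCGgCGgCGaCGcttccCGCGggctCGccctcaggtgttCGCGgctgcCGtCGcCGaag
Cacna1c, inner start, chr6:118757925-118758224: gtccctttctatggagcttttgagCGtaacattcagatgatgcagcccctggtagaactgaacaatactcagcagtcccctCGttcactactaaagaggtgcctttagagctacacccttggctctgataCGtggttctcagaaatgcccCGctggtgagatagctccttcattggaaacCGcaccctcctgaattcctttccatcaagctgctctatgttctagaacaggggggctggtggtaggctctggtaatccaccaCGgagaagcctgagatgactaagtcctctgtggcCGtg
Cacna1d, outer start, chr14:30491107-30491406: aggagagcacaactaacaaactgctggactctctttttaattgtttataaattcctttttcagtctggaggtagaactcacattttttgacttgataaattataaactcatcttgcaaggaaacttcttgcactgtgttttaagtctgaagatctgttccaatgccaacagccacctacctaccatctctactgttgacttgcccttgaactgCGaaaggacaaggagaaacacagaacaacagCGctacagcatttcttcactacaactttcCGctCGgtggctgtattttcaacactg
Cacna1d, inner start, chr14:30353437-30353736: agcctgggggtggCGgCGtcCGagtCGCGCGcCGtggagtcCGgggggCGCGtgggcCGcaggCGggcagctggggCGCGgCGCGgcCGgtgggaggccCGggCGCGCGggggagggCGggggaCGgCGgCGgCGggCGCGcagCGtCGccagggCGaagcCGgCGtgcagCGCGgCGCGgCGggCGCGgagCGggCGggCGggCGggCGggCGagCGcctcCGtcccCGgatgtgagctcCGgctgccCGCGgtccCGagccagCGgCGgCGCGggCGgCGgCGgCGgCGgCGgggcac

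The windows were matched to the start sites of the tables by their spacing, which was equal in both builds, 87914 and 350521 bases in Cacna1c and 137670 bases in Cacna1d. The middle Cacna1c window holds 57 CpG, and its start carried 96.9% of the gene's FPKM in control and 99.2% in stress. The outer window holds 3 CpG, and its start carried 2.92% and 0.412%. The inner window holds 7 CpG, and its start carried 0.130% and 0.422%. In Cacna1d the inner window holds 63 CpG and carried 93.9% and 94.2%, while the outer window holds 4 CpG and carried 6.09% and 5.82%. The CpG-rich start was thus the leading one of both genes in both tables. Among all 32851 windows of the reference the median is 7 CpG, and 0.152% hold at least 57 and 0.0304% at least 63.

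RefSeq windows were matched for 7 of the 10 genes, 10 windows in all. Those of Cacna2d1, Cacna2d3 and Cacna1b hold 42, 41 and 35 CpG, that of Cacna1i 23 and that of Cacna1e 11. The motif TATAAA, searched on both strands, was found in 1 of the 10 windows, the CpG-poor outer window of Cacna1d, beside 13.6% of all windows.

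Transcript shares differed by at least 10 percentage points between the 2 tables in Cacna1c, Cacna1g and Cacna1b, and by at most 0.272 points in the other 4 genes with several transcripts. Cacna1c is listed with 11 transcripts. NM_001159534 was at 7.35 FPKM in control and 4.95 FPKM in stress, or 88.0% and 52.1% of the gene. NM_001159533 was at 0.627 and 3.27 FPKM, or 7.51% and 34.4%. NM_001159535 was at 0.863 FPKM in the stress table, 9.09% of the gene, and near 0 in the control. These 3 transcripts differ only in exon 30: NM_001159534 uses chr6:118587748-118587831 (84 nt), NM_001159533 uses chr6:118588445-118588528 (84 nt), and NM_001159535 uses a shorter form of the former, chr6:118587754-118587831 (78 nt). A choice between exons of equal length at one place in the transcript is a known feature of L-type channel genes, where the alternative exons encode a transmembrane segment.

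The leading transcript of Cacna1g differed between the tables. NM_001177888 was at 1.49 FPKM in the control, 62.3% of the gene, and near 0 in the stress table. NM_009783 was at 0.902 FPKM in the control, 37.7%, and 2.24 FPKM in the stress table, nearly all of the gene. NM_009783 has an additional exon 14 (chr11:94301023-94301091, 69 nt), and its exon 25 (chr11:94287078-94287291, 214 nt) is longer than exon 24 of NM_001177888 (chr11:94287099-94287291, 193 nt).

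Cacna1b is listed with 2 transcripts that differ in several exons. NM_001042528 was at 6.24 and 8.21 FPKM, or 83.0% and 97.4% of the gene, and NM_007579 at 1.27 and 0.215 FPKM, or 17.0% and 2.55%. By contrast Cacna1d, with 2 transcripts, kept the leading one at 93.9% and 94.2%, and Cacna1a, Cacna1h and Cacna2d1 had nearly all FPKM on a single transcript in both tables.

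Shifts of this size are common in these tables. Of the 7 calcium channel genes with 2 or more transcripts, 3 had a share that differed by at least 10 percentage points, where 46.2% of 3187 such genes did, and 1 had another leading transcript in each table, where 20.4% did. The shares are the authors' estimates for transcripts that have most exons in common, in 1 table per group, and have no replicate check.

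**Figure D2:**
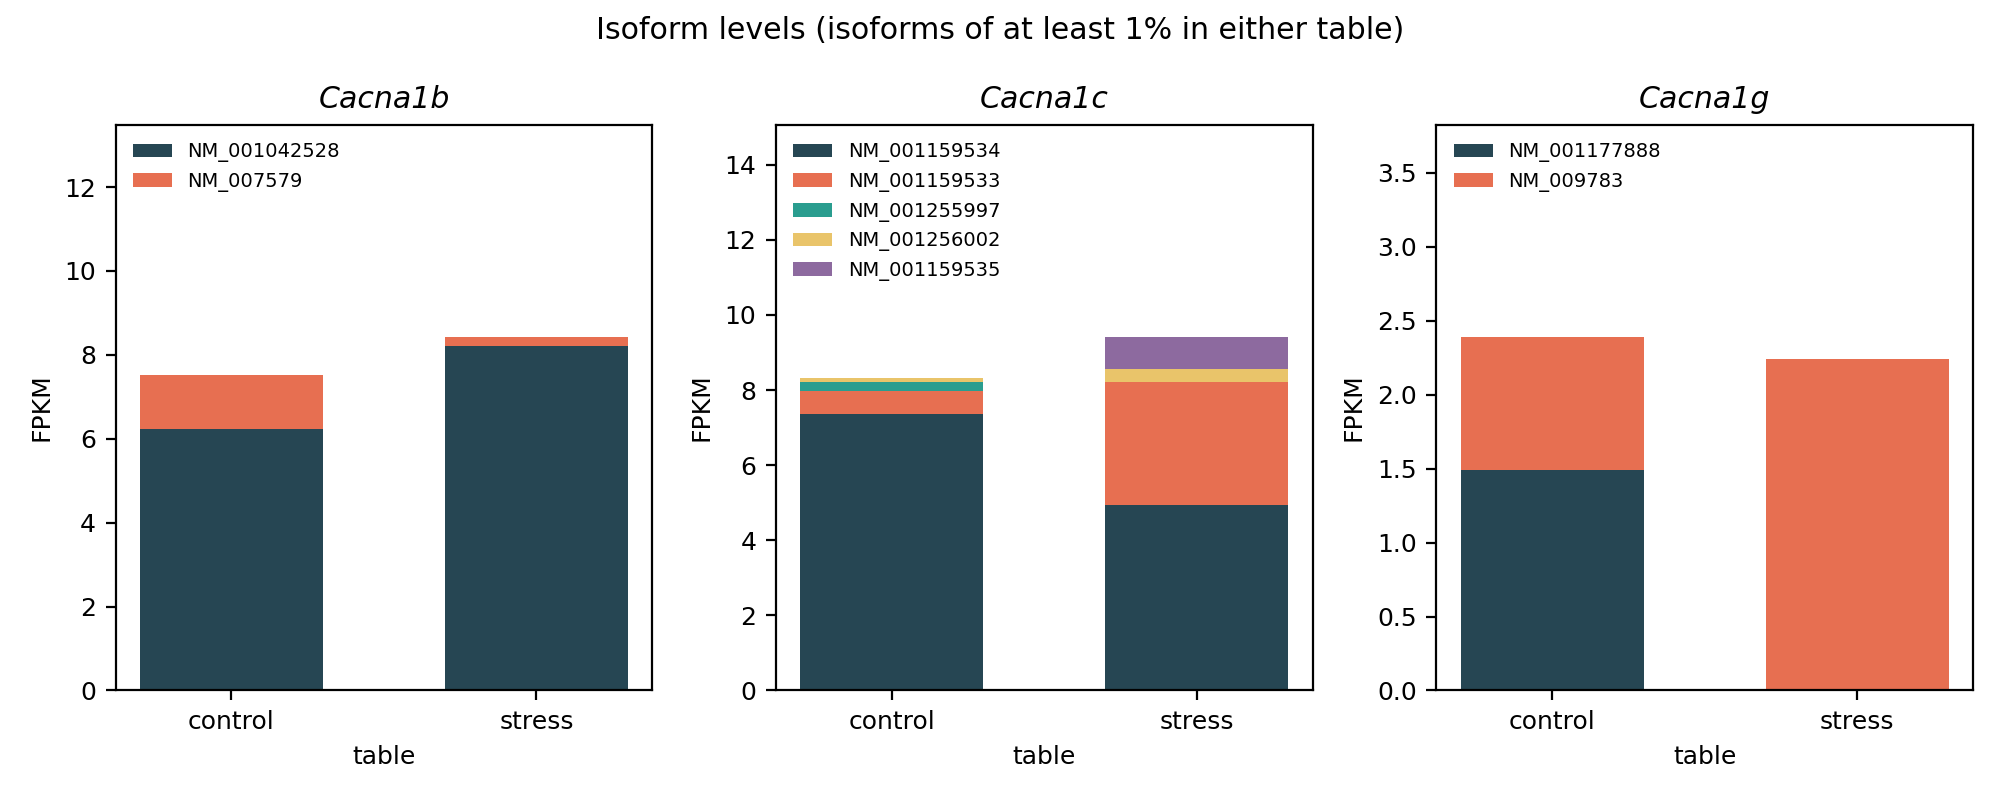
FPKM of the transcripts of Cacna1b, Cacna1c and Cacna1g, stacked by transcript (those of at least 1% of the gene), in the control and the stress table. The leading Cacna1c transcript goes from 88.0% to 52.1% of the gene, the leading Cacna1b transcript from 83.0% to 97.4%, and Cacna1g goes from a mix of 2 transcripts to 1.

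The 5hmC peaks were counted over each gene body, from the first start to the last end of its transcripts, and are given per 100 kb. No calcium channel gene had peak densities that were apart between the groups. Of the 10 genes, 0 were higher in every stress than in any control library, where 1.89% of 13966 genes of at least 10 kb were, and 0 were lower in every stress library, where 0.501% were. The exact two-sided permutation test of 3 against 3 libraries cannot go below 0.1, and after Benjamini-Hochberg adjustment over all 13966 genes every p of the 10 genes was 1. At an unadjusted p under 0.05 the exact test could call 0 genes. With limma on log2 densities relative to the library, 0 of the 10 genes passed an adjusted p of 0.05 and 0 an unadjusted p of 0.05, where 2.25% of the 6768 genes it tested passed the adjusted threshold.

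Cacna1a held 4, 6 and 5 peaks in stress libraries 1 to 3 and 4, 4 and 0 in control libraries 1 to 3. Control library 3 stands apart from the other 5, and the groups touch at 4 peaks. The density was 2.22 ± 0.445 peaks per 100 kb in stress and 1.19 ± 1.03 in control libraries (SD, n = 3 each, exact permutation p = 0.3, adjusted p = 1). As the percentage of the body under peaks, the groups no longer overlapped, at 2.57% ± 0.316 in stress and 1.15% ± 1.01 in control libraries, where 5.36% of all genes were higher in every stress library by this measure. Divided by the mean percentage of each library, Cacna1a overlapped again.

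Cacna1b held 0, 3 and 5 peaks in stress and 1, 2 and 0 in control libraries. Both groups include a library with no peak, and the density was 1.67 ± 1.58 and 0.628 ± 0.628 per 100 kb (SD, n = 3 each, exact permutation p = 0.5). Without stress library 1, which had the shortest list, both Cacna1a and Cacna1b were higher in every stress library, where 8.53% of all genes were. Cacna1e held 1, 3 and 6 peaks in stress and 2, 5 and 3 in control libraries, and its mean density was 1.00 per 100 kb in each group, with SDs of 0.755 and 0.458.

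The L-type genes carried many peaks. Cacna1c held 6, 7 and 14 peaks in stress and 6, 11 and 7 in control libraries, or 1.48 ± 0.716 and 1.31 ± 0.434 per 100 kb (SD, n = 3 each, exact permutation p = 0.9). Cacna1d held 5, 5 and 15 peaks in stress and 6, 7 and 8 in control libraries, or 1.85 ± 1.28 and 1.55 ± 0.222 per 100 kb (SD, n = 3 each, exact permutation p = 1). In both genes stress library 3, which had the longest list, was highest and the other 2 stress libraries were at or below most controls. Without it, Cacna1d and Cacna2d1 were lower in every stress library, where 1.54% of all genes were.

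The T-type genes are shorter and held few peaks. Cacna1g held 0, 1 and 4 peaks in stress and 2, 3 and 1 in control libraries, Cacna1h 1, 1 and 0 and 0, 1 and 0, and Cacna1i 1, 3 and 1 and 1, 2 and 3. The groups overlapped in all 3 genes, and the exact permutation p was 1 for each. In each of them 1 peak more or fewer in 1 library would move a group mean by as much as the group means differ, and a smaller difference was not detectable at this depth.

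Cacna2d1 held 1, 2 and 4 peaks in stress and 3, 7 and 3 in control libraries, or 0.531 ± 0.347 and 0.985 ± 0.525 per 100 kb (SD, n = 3 each, exact permutation p = 0.4, adjusted p = 1). The difference of -0.455 peaks per 100 kb became -0.152 without control library 2, which held the most peaks. As counted, the groups overlapped through stress library 3. Divided by each library's mean density in the 13966 genes, the values were 0.195, 0.220 and 0.385 times the mean in stress and 0.581, 0.828 and 0.633 in control libraries. On that scale every stress library was below every control library, at 0.267 ± 0.103 against 0.681 ± 0.130 (SD, n = 3 each, exact permutation p = 0.1, the smallest it can give), where 3.82% of all genes were. The same held with an equal number of top-scoring peaks per library, where 1.00% of all genes were lower in every stress library. It also held with the percentage of the body under peaks divided by its library mean, where 4.18% were, a setting added after seeing the data. With the undivided percentage, and with the higher-scoring 50% of each list, the groups were not apart. All these settings use the same peak lists. The percentages of all genes given here count genes with no peak, which cannot be apart. Among genes that hold peaks, the Cacna2d1 pattern was thus more common than these percentages show. By limma the log2 difference of Cacna2d1 was -0.86 with an SE of 0.49 and an adjusted p of 0.806. Its RNA was higher in the stress table by 0.14 on the log2 scale given above.

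Cacna2d3, the longest of the 10 genes, held 5, 14 and 13 peaks in stress and 9, 16 and 6 in control libraries, or 1.31 ± 0.604 and 1.26 ± 0.628 per 100 kb (SD, n = 3 each, exact permutation p = 1). The libraries with long lists were high in both groups.

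**Figure D3:**
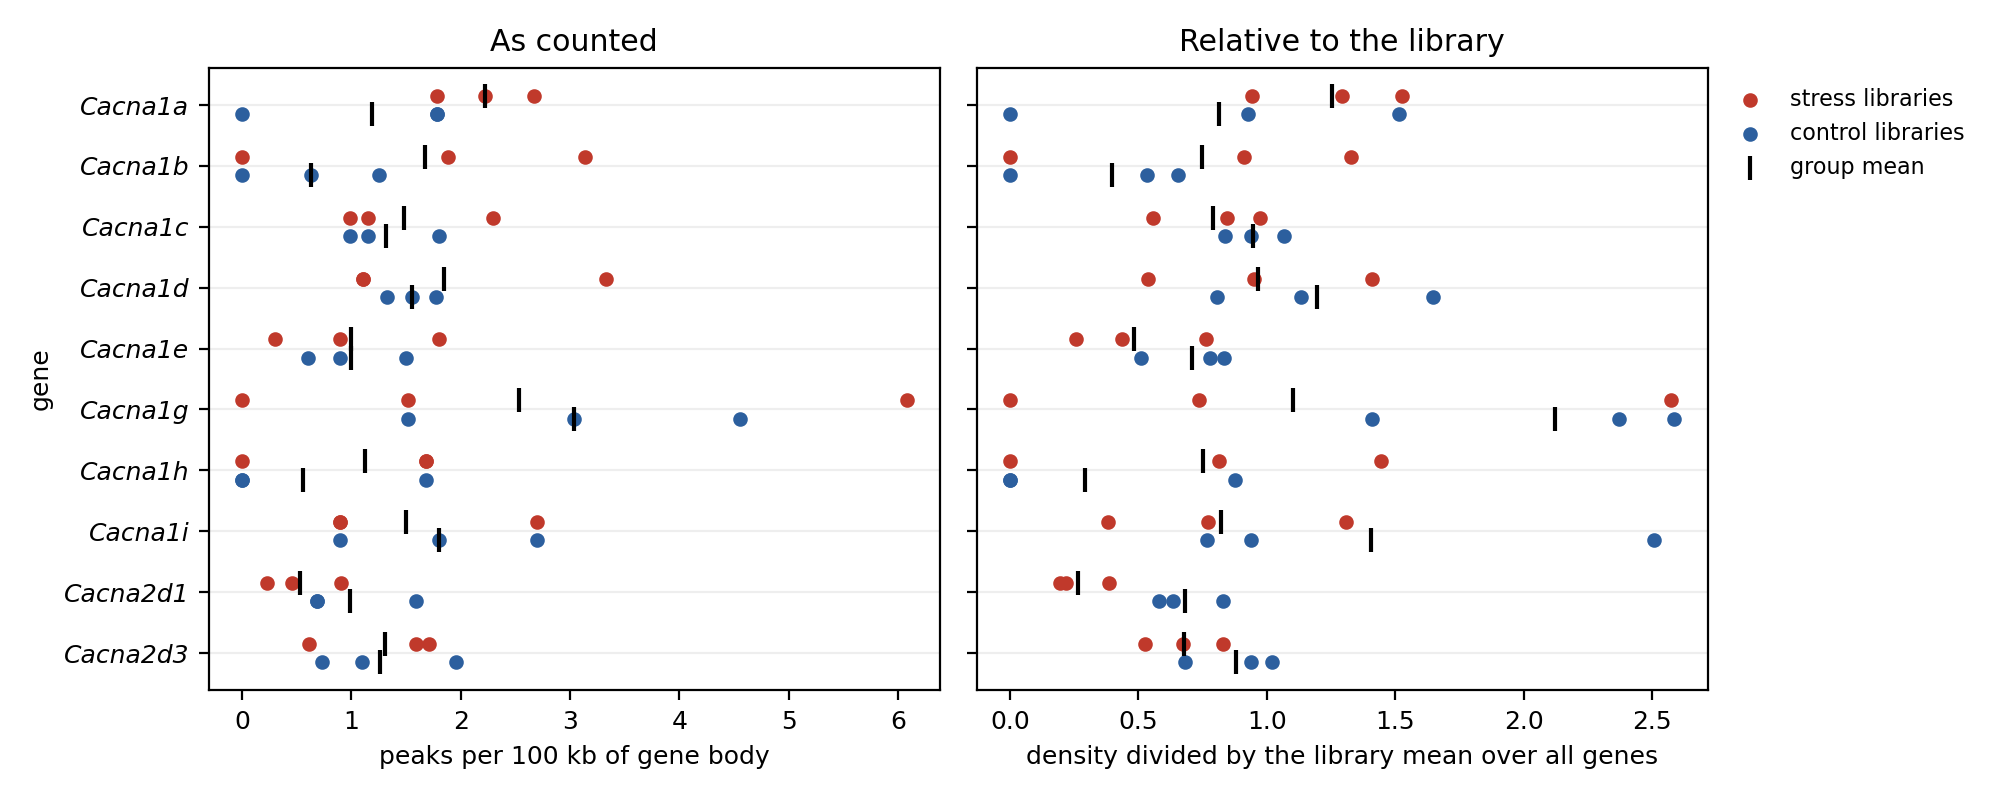
5hmC peaks per 100 kb of gene body of the 10 calcium channel genes in 3 stress and 3 control libraries, as counted (left) and divided by the library mean of the 13966 genes (right). Points are libraries and ticks are group means. The groups overlap for every gene on the left, and on the right only the Cacna2d1 points are apart, with stress at 0.195 to 0.385 and control at 0.581 to 0.828.

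Summed over the 10 genes, stress libraries 1 to 3 held 24, 45 and 67 peaks and control libraries 1 to 3 held 34, 58 and 31. The order followed the length of the lists. Divided by the library mean used above, in which every gene counts alike, the summed density was 0.630, 0.667 and 0.868 in stress and 0.885, 0.923 and 0.880 in control libraries, and every stress library was below every control library. Divided by the peaks of all 13966 genes over their summed length, in which long genes count more, it was 0.823, 0.856 and 1.12 in stress and 1.03, 1.11 and 1.01 in control libraries, and the groups overlapped through stress library 3. The order of the groups in the sum thus rests on the choice of denominator.

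Averaged over the 6 libraries, Cacna1g had the densest peaks of the 10 genes at 1.61 times the library mean. This was above 78.4% of the genes of at least 10 kb. At 65.8 kb, Cacna1g is shorter than the 1692 genes of at least 100 kb and 1 FPKM, of which 89.0% were below it. Cacna1i, Cacna1d and Cacna1a followed at 1.11, 1.08 and 1.03 times the mean. The sparsest were Cacna2d1 at 0.474, Cacna1h at 0.522, Cacna1b at 0.572 and Cacna1e at 0.597 times the mean. The median of the 10 genes was 0.824, beside 0.712 over all genes of at least 10 kb and 0.891 over the 1692 long expressed genes. The Cacna1g value rested on 11 peaks in all and had an SD of 1.08 over the 6 libraries.

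Overlapping peaks (1 shared bp or more) from the 6 libraries formed 157 merged regions in the 10 genes. Of these, 97 were found in 1 library, 29 in 2, 22 in 3, 8 in 4 and 1 in 5 libraries. Regions in a single library made up 61.8%, beside 56.6% in long expressed genes, and none of the 157 was found in all 6 libraries, where 1.51% of regions in long expressed genes were. Cacna2d3 held 40 regions, Cacna1c 31, Cacna1d 29, Cacna1e 14, Cacna2d1 13, Cacna1a 12, Cacna1b 8, Cacna1g 5, Cacna1i 4 and Cacna1h 1. Of the 157, 6 also lay on an overlapping gene and cannot be assigned to one of them.

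**Figure D4:**
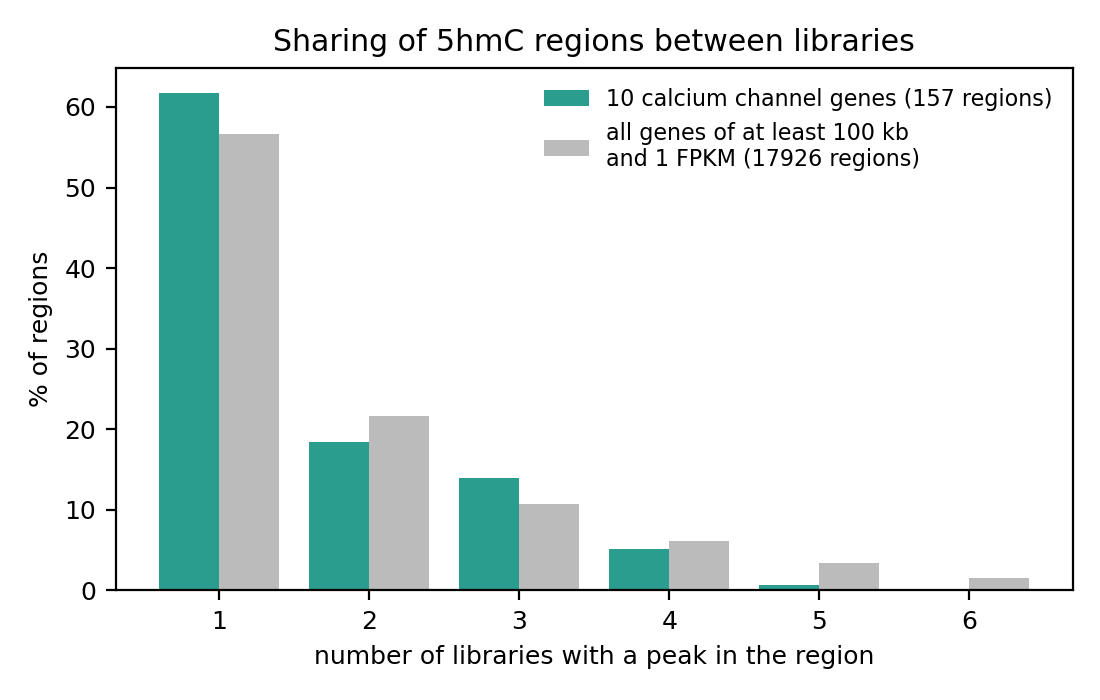
Percentage of 5hmC regions found in 1 to 6 libraries, for the 157 regions of the calcium channel genes and for regions in genes of at least 100 kb and 1 FPKM. Regions in 1 library make up 61.8% and 56.6%, and the calcium channel genes have none in all 6 libraries.

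The region shared most widely lay in an intron of Cacna2d1, chr5:15626747-15628177, and had a peak in every library except control library 2. Those in 4 libraries included 1 over exons 2 to 4 of Cacna1g (chr11:94326603-94328839), 1 over exons 32 to 34 of Cacna1a (chr8:87125174-87126438), 1 over exons 11 to 13 of Cacna1i (chr15:80198999-80200666) and 1 over exons 36 to 37 of Cacna2d3 (chr14:29720718-29721995). The other 4 were intronic, 2 in Cacna1c and 2 in Cacna2d3. Cacna1h held a single region, chr17:25565547-25566764, in an intron, found in stress libraries 1 and 2 and control library 2.

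Exons took 2.81% of the bases of the 10 gene bodies and 5.47% of the region bases, a ratio of 1.95. No such ratio is given for other genes, so whether it is particular to these 10 was not tested. The ratio differed by gene. In Cacna1b, exons took 6.14% of the body and 23.8% of region bases, and in Cacna1g 12.5% and 29.5%. The order was turned in Cacna2d1, with 1.70% of the body and 0.656% of region bases, in Cacna1c, with 2.43% and 2.05%, and in Cacna1h, with 13.8% and no exon base in its single region. By count, 37 of the 157 regions (23.6%) touched an exon, beside 19.0% in long expressed genes and 32.0% in genes of at least 10 kb, so the comparison turns with the set. In Cacna1b, 2 regions lay on exons that differ between its 2 transcripts. The one at chr2:24534333-24535949 covered exon 19, which is 768 nt in NM_001042528 and 765 nt in NM_007579, and was found in stress libraries 2 and 3 and control library 2. The one at chr2:24493732-24494845 covered exons 33 to 34, of which exon 33 is 117 nt in NM_001042528 and 118 nt in NM_007579, and was found in stress libraries 2 and 3.

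Regions found in every library of one group and no library of the other were few. There were 3 with a peak in all 3 stress and no control library and 1 with the reverse, among 157 regions, where 1.17% and 0.369% of regions in genes of at least 10 kb were of these kinds. The stress regions lay on exon 30 of the 48 exons of Cacna1a (chr8:87111844-87113158), in an intron of Cacna1i (chr15:80142113-80143157) and in an intron of Cacna2d3 (chr14:30257865-30258985). The control region lay in another intron of Cacna2d3 (chr14:30041783-30042795). By the authors' score, the Cacna1a peak stood at the 18.4, 4.98 and 17.3 percentile of stress lists 1 to 3, where 100 is the highest score of a list. The Cacna1i peak stood at 54.1, 62.3 and 21.7, the Cacna2d3 stress peak at 31.9, 38.1 and 81.2, and the Cacna2d3 control peak at 68.0, 37.0 and 26.1 in control lists 1 to 3. The Cacna1a region thus rested on low-scoring peaks, near the lowest deposited score, in all 3 stress lists. Single regions were not tested.

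**Figure D5:**
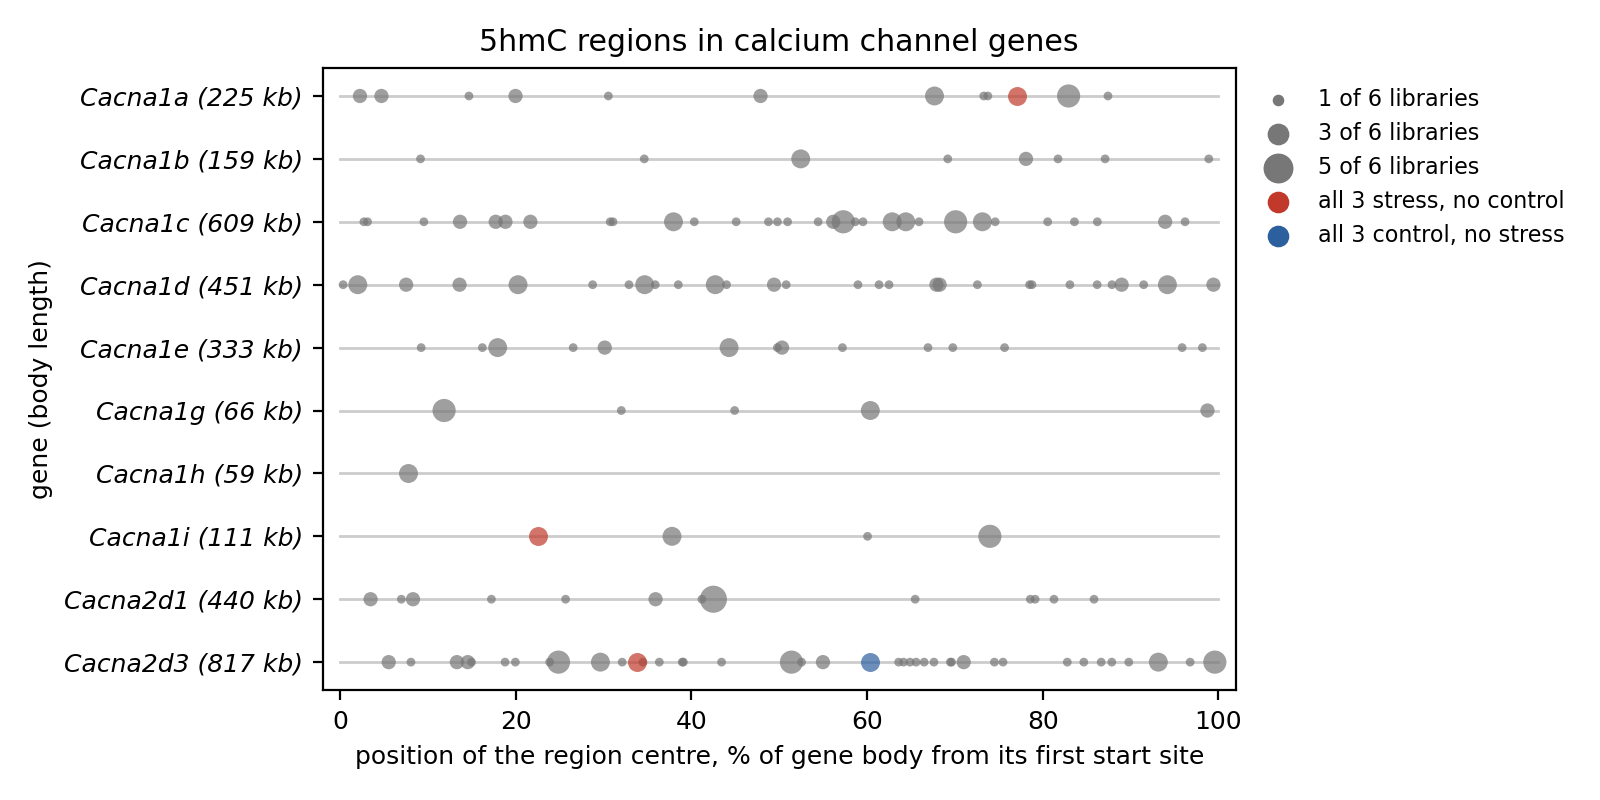
Position of the 157 5hmC regions along the 10 calcium channel genes, as a percentage of the body from the 5′ start, with colour giving whether a region was found in all 3 stress libraries only, all 3 control libraries only or another set of libraries, and point size giving the number of libraries. Regions are spread over the bodies, and the 3 stress and 1 control regions lie in Cacna1a, Cacna1i and Cacna2d3.

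The 10 genes have 13 start sites in the tables, and no region within a body lay within 1 kb of one, the nearest being 1.09 kb away in Cacna1d. A single peak upstream of Cacna1g was within 1 kb, chr11:94336311-94336924, found in control library 1 only and 799 bp from the start, with a score at the 15.8 percentile of its list. Thus 1 of 10 genes had a peak near a start, close to the 16.7% of long expressed genes and 16.2% of genes of at least 10 kb. None of the start sites of the 5 printed windows had a peak within 1 kb.

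The remaining subunits of the family were described from a list of 16 genes for beta, gamma and further alpha subunits, of which 11 reached 1 FPKM. In RNA, 7 of the 11 were above 0, where 69.4% of all 11071 genes were. Their median log2 difference was 0.13, and none differed by 0.32 or more. Cacng3, which encodes a protein of the AMPA receptor regulators, was highest at 9.84 FPKM in control and 12.4 FPKM in stress, a log2 difference of 0.31. Cacng4, of the same group, followed at 2.77 and 3.44 FPKM, a difference of 0.24. Lowest were Cacng5 at 1.84 and 1.59 FPKM, a difference of -0.13, and Cacnb2, a beta subunit that carries the pore to the membrane, at 8.18 and 7.59 FPKM, a difference of -0.10. In 5hmC, 1 of 16 was higher in every stress library, where 1.89% of the 13966 genes were: Cacng5, at 3.30 ± 1.43 peaks per 100 kb in stress libraries and with no peak in control libraries (SD, n = 3 each, exact permutation p = 0.1, adjusted p = 1). Cacng5 is 40.5 kb long, so its density stands for few peaks, and the loss of 1 peak in a stress library could make the groups overlap.

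Of 20 genes for presynaptic partners and intracellular calcium release, 13 reached 1 FPKM. In RNA, 12 of these were above 0, where 69.4% of all 11071 genes were, and 6 were above the median of all genes. Their median was 0.06, below the 0.08 of all genes, and none differed by 0.32 or more. Bzrap1 and Rimbp2, which link calcium channels to the release machinery, were highest at log2 differences of 0.26 and 0.19. Ryr3, a calcium release channel of the endoplasmic reticulum, was at 3.73 and 3.79 FPKM, a difference of 0.02. Of the 15 whose density could be tested, 1 was likewise higher in every stress library, beside the same 1.89% of all genes: Ryr3, at 0.752 ± 0.251 peaks per 100 kb in stress libraries and with no peak in control libraries (SD, n = 3 each, exact permutation p = 0.1, adjusted p = 1).

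The genes whose densities in the 6 libraries were most like the mean profile of the calcium channel genes, by Euclidean distance among 1692 long expressed genes, were Auts2, Dtna and Cdh13, at distances of 0.402, 0.428 and 0.444 peaks per 100 kb. The mean profile was 0.759, 1.58 and 2.23 peaks per 100 kb in stress libraries 1 to 3 and 1.10, 1.95 and 0.946 in control libraries 1 to 3. The profiles share the libraries and their list lengths.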

How the data were processed

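5hmC-enriched DNA and RNA of mouse hippocampus were measured, with 3 stress and 3 control libraries each, grouped by title. For 5hmC, the authors deposited 1 peak list per library with a score per peak, of at least 50 in every list. Alignment to mm9 with Bowtie 0.12.9 is named in the submitters' processing notes, and no source used here names the peak caller's version. For RNA, the authors deposited 1 Cufflinks-format table per group, with FPKM for 33262 transcripts. The same notes list Cufflinks 2.1.1, TopHat 1.0.12 and Cuffdiff 2.1.1. No source used here says how 3 libraries became 1 table. Coverage per FPKM, which follows depth, was 8.14 (control) and 9.22 (stress).

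FPKM were summed over transcripts per gene and compared as log2 ratios after adding 1, so changes of low genes are understated, for the 11071 genes that averaged 1 FPKM or more. Peaks that overlapped a body by at least 1 bp were counted for 13966 genes of at least 10 kb, and 113 genes at several loci were left out. Peaks on unplaced sequences (1 to 4 per library) were left out. Stress and control libraries were set against each other by exact permutation (two-sided, 20 assignments), adjusted by Benjamini-Hochberg over all genes, and with limma 3.58.1 in R 4.3.3 as an alternative. On simulated data limma called 92% of 100 genes changed 12-fold and 2% of 100 genes changed 4-fold. The changed genes were drawn from genes with more peaks per library than most of the 10 calcium channel genes held. The simulated counts had counting noise only, without further spread between pools. These shares therefore do not apply to genes with few peaks. Nothing in the labels says that libraries of a group are more than pools, so p-values measure the spread between pools. The single-mouse library, which would be a control, is treated like a pool in them. Scores served for ranks inside each list.

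The genes, lists, tests and alternatives were chosen with earlier results of these data known. Named genes are the 10 members. They are also, of the 2 further lists, the 2 highest and 2 lowest RNA differences, genes differing by 0.32 or more and genes with non-overlapping density, the 3 nearest profiles, and markers set beside a result. A gene named by this rule is not reported here. Promoter windows come from RefSeq on GRCm38.p6, and all other coordinates are of mm9, without conversion between builds. Python 3.11.15, numpy 2.4.6 and pandas 2.3.3 were used.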

Additional observations from a re-analysis of the deposited data

How the results depend on the processing

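The counts of 0 calcium channel genes apart between the groups moved to 1 under 4 settings. Cacna2d1 was lower in every stress library with an equal number of top-scoring peaks per list, after division by the library mean, and when percent covered was divided by its library mean, the last added after seeing the data. Cacna1a was higher in every stress library by percent covered. With libraries left out in turn, the counts ranged from 0 to 2 in each direction, at 2 higher (Cacna1a, Cacna1b) without stress library 1 and 2 lower (Cacna1d, Cacna2d1) without stress library 3.

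Several directions turned. Differences for Cacna1c, Cacna1d and Cacna2d3 were -0.219, -0.369 and -0.0408 peaks per 100 kb with equal lists. Divided by the library mean they were -0.156, -0.230 and -0.203 times the mean, and for percent covered so divided -0.173, -0.316 and -0.224. By limma, with and without the replicate block, they were -0.22, -0.27 and -0.29 on the log2 scale. With the higher-scoring 50% of each list, Cacna1c was at -0.164, Cacna1d at -0.148, Cacna1g at 1.01 and Cacna1h at -0.560 peaks per 100 kb. By percent covered, Cacna1g was at 1.67 percentage points. With libraries left out in turn, differences in peaks per 100 kb ranged from -0.246 to 0.410 for Cacna1c, from -0.443 to 0.665 for Cacna1d, from -2.28 to 0.760 for Cacna1g, from -0.9005 to 0.1501 for Cacna1i and from -0.224 to 0.388 for Cacna2d3, and from -0.400 to 0.350 for Cacna1e, whose difference was 0. Cacna1a, Cacna1b and Cacna1h stayed above 0 (0.445 to 1.33, 0.314 to 1.88 and 0.280 to 1.12) and Cacna2d1 below 0 (-0.644 to -0.152) in these. The cause was not tested.

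Deviations of same-numbered libraries correlated at -3.8e-05, -0.0206 and -0.00048 over 6768 genes. Those of differently numbered libraries correlated at -0.0131 to 0.0157. No pairing by replicate number was seen, but with few peaks per gene this check cannot exclude it. With the replicate block, 0 of the 10 genes were counted in either direction, and limma called 0 genes (375 at an unadjusted p under 0.05) in place of 152 (476).

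In RNA, the median of the 10 genes was 0.17 with a pseudocount of 0.1, 0.16 with no filter, 0.19 with the most abundant isoform and 0.08 after centring on all genes. With the most abundant isoform, Cacna1b was at 0.35, Cacna1c at -0.49 and Cacna1g at 0.77, and after centring Cacna2d3 was at -0.035. Depth limits the short genes most, since Cacna1g, Cacna1h and Cacna1i held at most 4 peaks in a library.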
